A study of Mus musculus with 45 samples.

Results

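The genes described here are 41 interferon-stimulated genes of the mouse, taken as a fixed list of symbols, of 55367 gene symbols in the count table. All 41 were present in the table, and all 41 passed the filter on low counts in primary tumors, scaffolds, lungs and spleens. Interferons are secreted proteins released by cells that sense viral or self nucleic acids (type I and type III) or by natural killer (NK) and T cells (type II, or interferon-gamma). Type I and type III receptors act through STAT2 and IRF9 on interferon-stimulated response elements, whereas the interferon-gamma receptor acts on gamma-activated sites. The products include antiviral effectors such as the IFIT, OAS and Mx proteins, the guanylate-binding proteins (GBPs) and immunity-related GTPases (IRGs), which respond strongly to interferon-gamma, and inhibitors of the pathway itself.

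Polyadenylated RNA was measured by 3′ sequencing in 45 tissues of female Balb/c mice, 3 per group in 15 groups, with a tag counted near the 3′ end of each transcript. The tumor-bearing mice were inoculated orthotopically with 67NR, 4T07 or 4T1 cells, cultured triple negative mammary cancer lines that are nonmetastatic, invasive without forming metastases and metastatic, respectively. Primary tumor, lung, spleen and a porous polycaprolactone scaffold, an implant placed under the skin before inoculation that fills with host cells, were collected on day 14. The tumor-free groups, named Control, supplied scaffold, lung and spleen. Each line is 1 cultured population in an immunocompetent host of 1 strain, so differences between tumor groups are differences between 3 lines. The labels do not link the tissues of one animal, and the 3 libraries of a group are treated as separate mice, so p-values measure the spread between these libraries.

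The libraries held between 3491888 and 8175380 counts (median 5149589). Values are given here as counts per 1000000 counts of the library (CPM), always in the order of replicates 1, 2 and 3, and 3 counts correspond to at most 0.859 CPM. Fold changes are log2 ratios from an edgeR fit on library sizes scaled by TMM, so they can differ from the ratio of CPM means. A gene was called changed at an adjusted p under 0.05 in tumors or 0.10 in other tissues with a fold change over 2. Several libraries differed in tissue make-up. Lungs of 4T07-bearing mice had summed CPM over 4 lung epithelial markers of 5064 to 13053, below the 26282 to 29839.7 of control lungs, and over 5 erythroid markers of 31644 to 42934, above the 6559 to 8022 of control lungs. The second 4T1 scaffold stood apart from the other two for several of the genes below. In such bulk samples, fewer cells of a type and less RNA per cell cannot be told apart. Reads of near-identical copies (Ifit3 and Ifit3b, the Oas1 and Oasl genes, Ifi27l2a, Iigp1, Trim30a, Mx1 and Mx2) may have been split or dropped by the counting, so values of these genes are uncertain in that respect. Most laboratory strains carry defective Mx1 and Mx2 alleles, and the level of these RNAs says nothing of protein function.

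RefSeq promoter windows on GRCm38.p6, 250 bases before to 50 bases after an annotated start, were found for 31 of the 41 genes. There was no entry for Zbp1, Usp18, Mx1, Mx2, Oas2, Parp9, Parp14, Rtp4, Ifi27l2a or Iigp1. The core of the interferon-stimulated response element (ISRE), searched as GAAA, any 2 bases and GAAA again on both strands (TTTC on both sides when read on the other strand), was present in a window of 19 of 31 genes (61.3%), beside 3.99% of all 27025 genes with a window. TTCNNNGAA, the core of a gamma-activated site (GAS), which reads the same on both strands, was present for 8 of 31 (25.8%) beside 9.55% of all genes. Both motifs were found in 5 of the genes, overlapping in 1 promoter window, and 9 genes had neither. All 4 GBP genes and both IRG genes with a window held the ISRE core, as did 3 of 4 IFIT genes. Windows of 7 genes are printed, 30 bases to either side of the matches, because the genes behaved differently between the tumors described below: Isg15, Ifit3, Ifit3b and Rsad2, which were not higher in 4T07 than in 67NR tumors by the thresholds, and Igtp, Gbp3 and Irf1, which were. Capitals mark the ISRE core on either strand, and in Irf1 the GAS core. The Igtp window also holds a GAS core, which is left in lower case.
Isg15: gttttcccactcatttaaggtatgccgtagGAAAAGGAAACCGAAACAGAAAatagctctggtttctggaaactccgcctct
Ifit3: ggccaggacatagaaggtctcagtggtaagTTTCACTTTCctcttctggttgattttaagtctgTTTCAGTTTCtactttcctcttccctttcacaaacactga
Ifit3b: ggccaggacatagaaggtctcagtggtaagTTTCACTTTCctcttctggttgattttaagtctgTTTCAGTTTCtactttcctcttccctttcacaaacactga
Rsad2: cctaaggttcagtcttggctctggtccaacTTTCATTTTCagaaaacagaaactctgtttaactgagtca
Igtp: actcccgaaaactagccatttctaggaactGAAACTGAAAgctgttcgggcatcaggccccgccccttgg
Gbp3: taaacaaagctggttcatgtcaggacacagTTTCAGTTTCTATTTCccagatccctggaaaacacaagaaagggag
Irf1: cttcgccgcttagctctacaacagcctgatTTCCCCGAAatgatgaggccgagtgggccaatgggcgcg
These lie at chr4:156200845-156200926, minus strand (Isg15), chr19:34583343-34583446, plus strand (Ifit3), chr19:34607739-34607842, plus strand (Ifit3b), chr12:26456533-26456602, minus strand (Rsad2), chr11:58199492-58199561, plus strand (Igtp), chr3:142559969-142560044, plus strand (Gbp3) and chr11:53769894-53769962, plus strand (Irf1), each read 5′ to 3′ on the gene's strand. The 104 bases printed for Ifit3 and for its neighbor copy Ifit3b are the same letters. A match is a run of letters and not a measured binding site.

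Levels across the 15 groups placed most of the genes highest in a primary tumor. The highest of the 15 group means was in 4T07 tumors for 22 genes and in 67NR tumors for 10, and in 4T1 tumors for none. How many of all genes were highest in these groups was not counted. The 22 included all 4 GBPs and all 3 IRGs, while the 10 included all 4 IFIT genes, Mx1, Oas1a, Oasl1 and Irf7. The sum over the 41 genes was 7086 ± 1044 CPM (SD, n = 3) in 4T07 tumors, 2599 ± 210.0 CPM in 67NR tumors and 2582 ± 562 CPM in 4T1 tumors, with no 67NR or 4T1 tumor above 3128 CPM and no 4T07 tumor below 6024 CPM. Among other tissues, spleens carried the most, and 1 gene made up much of it. Rsad2, which encodes viperin, an enzyme that makes a chain-terminating nucleotide, supplied 27.3% to 35.0% of the summed CPM in control spleens and 52.3% to 56.0% in 4T1 spleens, but 2.93% to 6.01% in 4T07 tumors. Without Rsad2 the sums were 2802 ± 292 for control, 2533 ± 166 for 67NR, 1945 ± 66.7 for 4T07 and 1876 ± 315 for 4T1 spleens (CPM, SD).

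**Figure D1:**
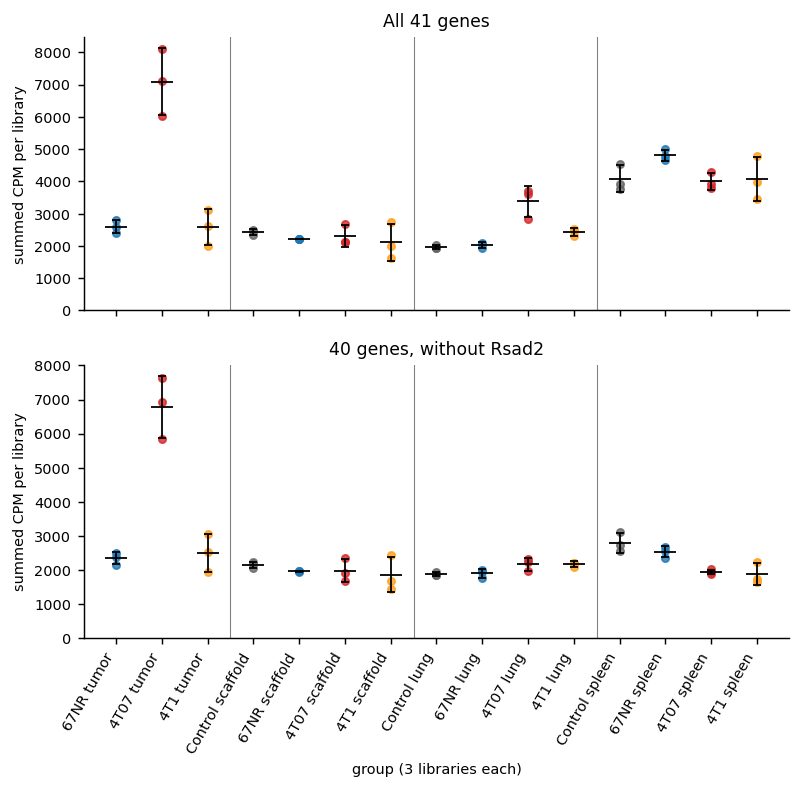
Summed level of the interferon-stimulated genes in each library (points, CPM of the library total) with the mean and SD of the 3 libraries of each of the 15 groups, for all 41 genes and for the 40 genes without Rsad2. Color marks the tumor line. The 4T07 tumors, at 6024 to 8110 CPM, lie above every other group with or without Rsad2, whereas the 4T07 lungs stand clear of the other lungs only with it.

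The first question was how the genes differed between nonmetastatic, invasive and metastatic primary tumors. Relative to 67NR, 4T07 tumors had 22 of 41 genes higher and 5 lower, beside 17.1% and 11.8% of the 20508 genes tested. 4T1 tumors relative to 67NR had 4 higher and 16 lower, beside 11.6% and 9.07% of all genes. 4T1 relative to 4T07 had none higher and 26 lower, beside 3.82% and 4.79% of all genes, and DESeq2 also called none higher. Of the 41 genes, 38 had an unadjusted p under 0.05 in that last comparison, and every one except Oas1a and Ifi27l2a had a log2 fold change below 0. The share of all genes at that unadjusted p is not given. The median log2 fold change of the 41 genes was 1.06 in 4T07 relative to 67NR, -0.23 in 4T1 relative to 67NR and -1.17 in 4T1 relative to 4T07, beside 0.16, 0.086 and -0.046 over all genes. Each pair of these comparisons shares a group of tumors. Leaving out each tumor in turn gave 25 to 28, 18 to 22 and 18 to 26 called genes in the 3 comparisons.

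**Figure D2:**
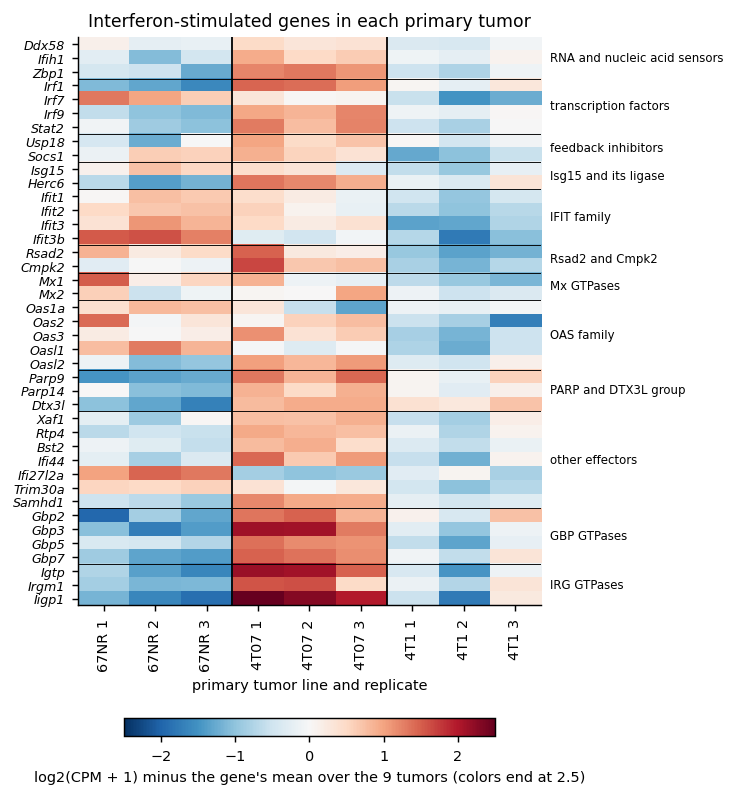
Level of each gene in each of the 9 primary tumors, as log2(CPM + 1) minus that gene's mean over the 9 tumors, with genes in rows by role and tumors in columns by line and replicate. GBP and IRG rows are highest in all 4T07 tumors, Ifit3b, Irf7, Oasl1 and Ifi27l2a rows are highest in all 67NR tumors, and most rows are low in the 4T1 tumors.

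The GTPases that respond to interferon-gamma separated 4T07 tumors from both other lines. GBPs and IRGs coat and disrupt the vacuoles of intracellular microbes. All 4 GBPs and all 3 IRGs were higher in 4T07 than in 67NR tumors, 6 of the 7 were lower in 4T1 than in 4T07 tumors, and 1 of the 7 (Gbp2) was called between 4T1 and 67NR tumors. Iigp1 read 1353, 1171 and 944 CPM in 4T07 tumors, 106, 76.7 and 63.5 CPM in 67NR tumors and 163, 69.3 and 282 CPM in 4T1 tumors. The lowest 4T07 tumor was above every other tumor, while the 67NR and 4T1 tumors overlapped. The log2 fold change was 3.57 ± 0.38 (SE, edgeR adjusted p = 3.83e-06) in 4T07 relative to 67NR and -2.69 ± 0.37 (SE, edgeR adjusted p = 0.000159) in 4T1 relative to 4T07. Igtp, also known as Irgm3, a regulator of the other IRGs, read 865, 826 and 537 CPM in 4T07, 113, 75.0 and 61.5 CPM in 67NR and 146, 69.1 and 177 CPM in 4T1 tumors. The fitted log2 fold change was 2.91 ± 0.32 (SE, edgeR adjusted p = 4.36e-06) between 4T07 and 67NR tumors and -2.45 ± 0.31 (SE, edgeR adjusted p = 7.63e-05) between 4T1 and 4T07 tumors, again with 4T07 clear of both lines. Irgm1 had the smallest shift of the IRGs, 2.14 ± 0.30 (SE) in 4T07 relative to 67NR.

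Among the GBPs, Gbp3 read 158, 157 and 89.2 CPM in 4T07, 16.7, 10.1 and 13.0 CPM in 67NR and 29.6, 17.8 and 32.4 CPM in 4T1 tumors. No 4T07 tumor overlapped with another line, and the log2 fold changes were 3.10 ± 0.28 (SE, edgeR adjusted p = 7.17e-07) over 67NR and -2.28 ± 0.26 (SE, edgeR adjusted p = 2.85e-05) for 4T1 relative to 4T07. Gbp2 was the one GBP called in 4T1 relative to 67NR tumors. It read 21.8, 47.8 and 35.0 CPM in 67NR, 94.4, 65.8 and 146 CPM in 4T1 and 223, 243 and 158 CPM in 4T07 tumors. The 3 groups did not overlap, and Gbp2 was called in 4T1 relative to 67NR at 1.35 ± 0.31 (SE, edgeR adjusted p = 0.00361), whereas 4T1 relative to 4T07, at -0.97 ± 0.29 (SE, edgeR adjusted p = 0.0371), fell short of the fold threshold. Gbp5 and Gbp7 were 1.54 and 2.30 log2 units higher in 4T07 than in 67NR tumors.

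Transcription factors of the pathway did not move as one. Irf1, an early target of interferon-gamma with a gamma-activated site core in the promoter window printed above, read 167, 145 and 116 in 67NR tumors, 991, 943 and 738 in 4T07 tumors and 372, 308 and 438 in 4T1 tumors (CPM). All 3 groups were distinct, with 4T07 2.39 ± 0.20 (SE, edgeR adjusted p = 3.35e-07) above 67NR, and 4T1 between them, 1.19 ± 0.19 (SE, edgeR adjusted p = 0.000213) above 67NR and -1.20 ± 0.19 (SE, edgeR adjusted p = 0.00056) relative to 4T07. Stat2, the partner of IRF9, read 38.2, 21.5 and 19.5 CPM across the 67NR tumors, with 102, 69.9 and 97.6 CPM across the 4T07 tumors and 28.2, 22.5 and 39.9 CPM across the 4T1 tumors. Stat2 was higher in every 4T07 tumor, while 67NR and 4T1 overlapped with a log2 fold change of 0.0053 ± 0.27 (SE, edgeR adjusted p = 0.991). Irf9 was also highest in 4T07 tumors, at 1.69 in 4T07 relative to 67NR and -1.07 in 4T1 relative to 4T07. Irf7, which amplifies type I interferon production, ran the other way. It read 78.7, 62.1 and 48.0 CPM among 67NR tumors, 38.7, 31.6 and 32.5 CPM among 4T07 tumors and 20.7, 10.5 and 12.5 CPM among 4T1 tumors. The groups descended in that order without overlap, by -1.12 ± 0.24 (SE, edgeR adjusted p = 0.00154) in 4T07 and -2.30 ± 0.25 (SE, edgeR adjusted p = 5.33e-06) in 4T1 relative to 67NR.

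The IFIT proteins bind foreign RNA ends and halt translation, and their genes were lowest in 4T1 tumors. Relative to 67NR, all 4 were lower in 4T1 and 1 of 4 was lower in 4T07, and 2 of 4 were lower in 4T1 than in 4T07 tumors. Ifit3b read 26.9, 28.3 and 22.3 in 67NR tumors, 6.82, 5.99 and 8.18 in 4T07 tumors and 4.94, 1.84 and 3.67 in 4T1 tumors (CPM). The 67NR tumors stood clear of both other lines, at -2.14 ± 0.29 (SE, edgeR adjusted p = 3.78e-05) for 4T07 and -3.07 ± 0.31 (SE, edgeR adjusted p = 2.48e-06) for 4T1. Ifit3 read 23.7, 39.7 and 33.3 CPM across the 67NR tumors, with 25.9, 20.9 and 23.7 CPM across the 4T07 tumors and 6.58, 6.76 and 10.4 CPM across the 4T1 tumors. Here 67NR and 4T07 tumors overlapped and the 4T1 tumors lay below both, -2.23 ± 0.27 (SE, edgeR adjusted p = 1.21e-05) relative to 67NR. Ifit1 read 22.3, 37.2 and 35.0 CPM among 67NR tumors, 30.1, 25.2 and 19.5 CPM among 4T07 tumors and 15.2, 10.7 and 15.8 CPM among 4T1 tumors, with -1.39 ± 0.26 (SE, edgeR adjusted p = 0.000738) in 4T1 relative to 67NR. Ifit2 was -1.72 in the same comparison.

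Isg15 encodes a ubiquitin-like modifier, and Herc6 the ligase that attaches it in mice. Isg15 read 182, 279 and 241 in 67NR tumors, 230.0, 210.1 and 132 in 4T07 tumors and 109.7, 87.1 and 147 in 4T1 tumors (CPM). 4T07 overlapped with both other lines, and the called difference was -1.23 ± 0.24 (SE, edgeR adjusted p = 0.00116) between 4T1 and 67NR. Herc6 was instead 2.04 ± 0.23 (SE, edgeR adjusted p = 7.55e-06) higher in 4T07 than in 67NR tumors. Usp18, which removes ISG15 and blocks the type I receptor, read 6.18, 3.08 and 8.47 CPM across the 67NR tumors, with 18.1, 12.3 and 14.7 CPM across the 4T07 tumors and 8.78, 5.94 and 7.99 CPM across the 4T1 tumors. The 4T07 tumors were the highest, 1.10 ± 0.32 (SE, edgeR adjusted p = 0.0136) over 67NR. Socs1, an inhibitor of JAK kinases, read 36.8, 63.2 and 61.8 CPM among 67NR tumors, 76.9, 60.8 and 52.5 CPM among 4T07 tumors and 16.3, 19.7 and 27.4 CPM among 4T1 tumors. For Socs1 the 67NR and 4T07 tumors overlapped and the 4T1 tumors lay below both, -1.56 ± 0.26 (SE, edgeR adjusted p = 0.000251) relative to 67NR and -1.54 ± 0.25 (SE, edgeR adjusted p = 0.000783) relative to 4T07.

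Rsad2 and Cmpk2 are adjacent genes, and CMPK2 is a mitochondrial nucleotide kinase. Rsad2 read 323, 206 and 244 in 67NR tumors, 487, 208 and 196 in 4T07 tumors and 90.5, 68.5 and 76.4 in 4T1 tumors (CPM). The 4T1 tumors were below all others, -1.90 ± 0.29 (SE, edgeR adjusted p = 0.000124) relative to 67NR, while 4T07 and 67NR overlapped. Cmpk2 read 10.2, 12.6 and 11.6 CPM across the 67NR tumors, with 42.7, 20.9 and 22.0 CPM across the 4T07 tumors and 6.77, 5.12 and 7.34 CPM across the 4T1 tumors. It was called in both directions, at 1.06 ± 0.29 (SE, edgeR adjusted p = 0.00795) in 4T07 and -1.03 ± 0.31 (SE, edgeR adjusted p = 0.0193) in 4T1, each relative to 67NR.

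The OAS enzymes make short 2′-5′ oligoadenylates that activate RNase L, and OASL2 is a relative with a ubiquitin-like tail. Relative to 67NR, 4 of 5 were lower in 4T1, and 2 were lower and 1 higher in 4T07. Oasl2 was the one higher in 4T07, with 52.1, 26.3 and 28.5 CPM among 67NR tumors, 116, 102 and 120.2 CPM among 4T07 tumors and 45.2, 40.0 and 62.2 CPM among 4T1 tumors. The 4T07 tumors did not overlap with the others, at 1.42 ± 0.24 (SE, edgeR adjusted p = 0.000223) over 67NR. Oasl1 read 20.4, 30.2 and 21.7 in 67NR tumors, 11.4, 9.07 and 11.3 in 4T07 tumors and 6.4, 4.3 and 7.77 in 4T1 tumors (CPM). The 67NR tumors were highest, with -1.44 ± 0.27 (SE, edgeR adjusted p = 0.000543) in 4T07 relative to 67NR. Oas2 read 13.4, 4.2 and 5.65 CPM across the 67NR tumors, with 4.62, 7.08 and 8.18 CPM across the 4T07 tumors and 2.74, 2.05 and 0.648 CPM across the 4T1 tumors, and the 4T1 tumors lay below both other lines, -2.24 ± 0.50 (SE, edgeR adjusted p = 0.00284) relative to 67NR. Oas1a was -1.41 in 4T07 and -1.08 in 4T1 relative to 67NR, and Oas3 was -1.24 in 4T1 relative to 67NR, with 13.2, 11.2 and 12.7 CPM among 67NR tumors, 26.1, 14.7 and 18.1 CPM among 4T07 tumors and 5.85, 4.51 and 7.55 CPM among 4T1 tumors. Of the Mx GTPases, which block viral nucleocapsids, Mx1 was lower in 4T1 than in 67NR at -2.05 ± 0.36 (SE, edgeR adjusted p = 0.000437), and Mx2 was not called in any tumor comparison.

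PARP9 and DTX3L form a complex that modifies histones, and PARP14 is an ADP-ribosyltransferase. All 3 of these genes were higher in 4T07 than in 67NR tumors, and 2 of 3 in 4T1. Dtx3l read 29.6, 24.3 and 18.3 in 67NR tumors, 106, 116 and 117 in 4T07 tumors and 80.3, 73.4 and 101 in 4T1 tumors (CPM). Both other lines lay above 67NR, by 1.98 ± 0.20 (SE, edgeR adjusted p = 1.8e-06) and 1.62 ± 0.20 (SE, edgeR adjusted p = 1.45e-05). Parp9 read 16.9, 18.7 and 19.8 CPM across the 67NR tumors, with 123, 88.4 and 134 CPM across the 4T07 tumors and 51.4, 42.8 and 72.7 CPM across the 4T1 tumors. The order was 67NR, 4T1, 4T07 without overlap, with 1.39 ± 0.23 (SE, edgeR adjusted p = 0.000305) in 4T1 relative to 67NR. None of the 3 was called between 4T1 and 4T07.

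Of the nucleic acid sensors, Zbp1, which binds Z-form nucleic acid and can start necroptosis, had the largest fold changes between lines. Zbp1 read 40.6, 38.3 and 22.6 CPM among 67NR tumors, 131, 139 and 120.2 CPM among 4T07 tumors and 38.4, 32.0 and 51.4 CPM among 4T1 tumors. The 4T07 tumors were apart, 1.69 ± 0.23 (SE, edgeR adjusted p = 3.09e-05) over 67NR, and the other two lines overlapped. Ifih1 (MDA5) was 1.06 in 4T07 relative to 67NR, and Ddx58 (RIG-I) was not called. Bst2, or tetherin, which holds budding virions at the cell surface and is also abundant on plasmacytoid dendritic cells, read 380.0, 336 and 275 in 67NR tumors, 719, 779 and 560.5 in 4T07 tumors and 325, 270.0 and 368 in 4T1 tumors (CPM). It was called only in 4T1 relative to 4T07 among the 3 tumor comparisons, at -1.04 ± 0.19 (SE, edgeR adjusted p = 0.00141). Among the remaining effectors, Samhd1 (a dNTP hydrolase), Rtp4 and Ifi44 were higher in 4T07 than in 67NR by 1.48, 1.18 and 1.31 log2 units. For Ifi44 the levels were 60.2, 40.0 and 55.6 CPM across the 67NR tumors, with 196, 113 and 151 CPM across the 4T07 tumors and 47.5, 30.5 and 76.6 CPM across the 4T1 tumors, with the 4T07 tumors above the rest. Trim30a was -1.46 in 4T1 relative to 67NR, and Xaf1 was -1.18 in 4T1 relative to 4T07. Ifi27l2a stood out in 67NR tumors, with 209, 286 and 262 CPM against 57.4, 51.5 and 54.5 CPM in 4T07 and 85.4, 109 and 58.9 CPM in 4T1 tumors. Neither other line overlapped with 67NR, at -2.47 ± 0.21 (SE, edgeR adjusted p = 5.18e-07) for 4T07 and -1.79 ± 0.21 (SE, edgeR adjusted p = 9.91e-06) for 4T1.

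**Figure D3:**
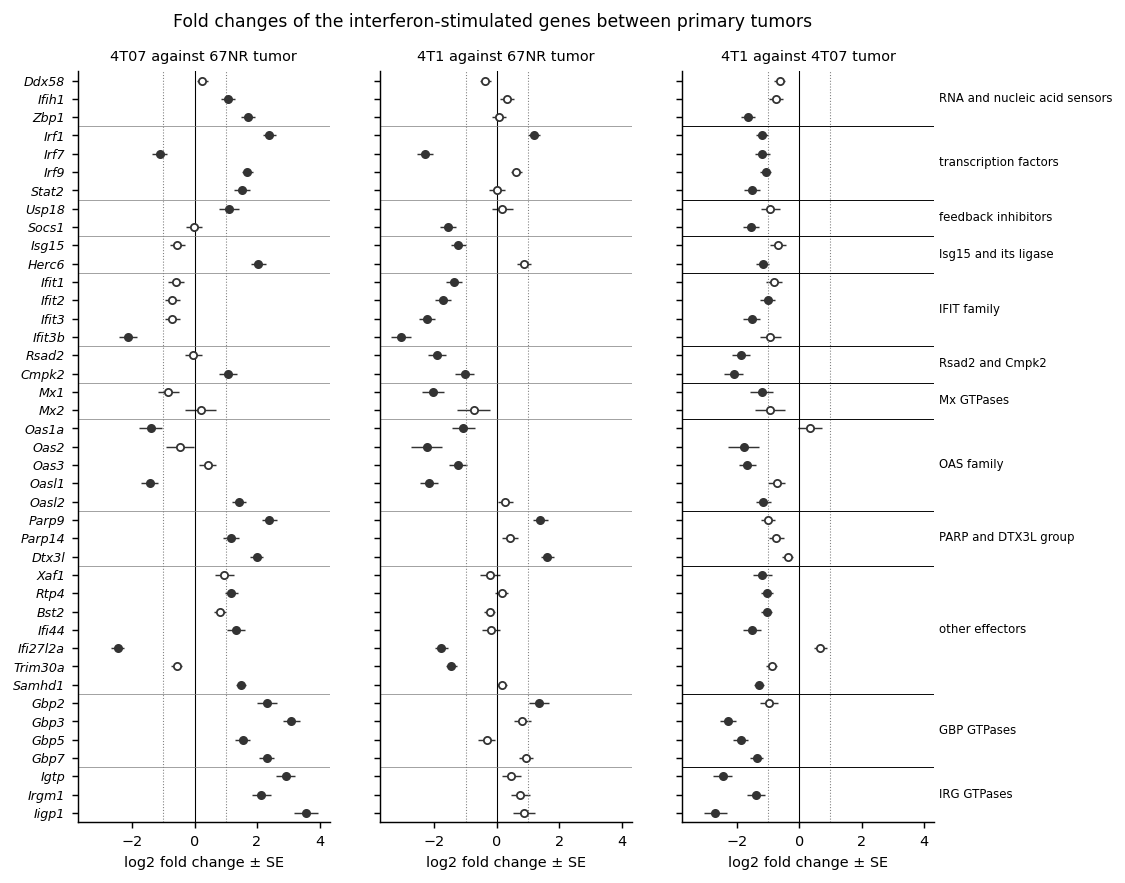
Log2 fold change with its SE for each gene in the 3 tumor comparisons, grouped by role. Filled points were called (adjusted p under 0.05 and fold change over 2, dotted lines), and open points were not. In 4T07 relative to 67NR the GBPs and IRGs reach 1.54 to 3.57 while Ifit3b, Oasl1, Irf7 and Ifi27l2a lie below -1, and in 4T1 relative to 4T07 every called point is below 0.

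Other genes of the pathway were counted from a list of 108 genes in the table. Of 85 tested in tumors, 31 were higher and 7 lower in 4T07 relative to 67NR. In 4T1, 11 were higher and 5 lower relative to 67NR, and 1 higher and 19 lower relative to 4T07. In the same order, the shares of all genes were 17.1% and 11.8%, 11.6% and 9.07%, and 3.82% and 4.79%. The counts of 11 and 5 in 4T1 relative to 67NR are near those shares. Ifng, the ligand of the type II receptor, read 1.34, 1.68 and 0.565 CPM among 67NR tumors, 6.02, 4.54 and 3.95 CPM among 4T07 tumors and 0.549, 0.205 and 0.648 CPM among 4T1 tumors. It was called at 1.75 ± 0.49 (SE, edgeR adjusted p = 0.00939) in 4T07 relative to 67NR and -3.25 ± 0.53 (SE, edgeR adjusted p = 0.000714) in 4T1 relative to 4T07, and no 4T07 tumor overlapped with another line. The 67NR and 4T1 tumors held 1 to 6 Ifng counts each, near the limit of detection, and the 4T07 tumors 14 to 30. Cxcl9, a T cell attractant induced by interferon-gamma, read 41.7, 38.0 and 30.8 CPM across the 67NR tumors, with 277, 206 and 203 CPM across the 4T07 tumors and 53.8, 15.2 and 63.5 CPM across the 4T1 tumors. As for Iigp1, the lowest 4T07 tumor was above every other tumor. None of the 20 other ligands, type I and type III, passed the filter in tumors, where the largest count of any of them in a library was 3.

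Markers of other cells also differed between the tumors, and their part in these results was not tested. Summed CPM over 4 NK cell markers were 138 to 154 in 67NR, 36.1 to 47.5 in 4T07 and 7.77 to 13.5 in 4T1 tumors. In the same order of lines, the sums over 6 T cell markers were 15.9 to 32.5, 38.3 to 113 and 24.4 to 84.0, over 4 B cell markers 2.8 to 8.47, 21.8 to 111 and 5.83 to 29.3, and over 7 neutrophil markers 18.9 to 366, 995 to 5183 and 510.2 to 804. The sums over 6 macrophage and monocyte markers were 1043 to 1125, 1043 to 1169 and 777 to 1027. Those over 5 plasmacytoid dendritic cell markers were 278 to 393, 587 to 829 and 980 to 1184, highest in 4T1 tumors. That order was not shared by all 5 markers. In 4T1 relative to 67NR tumors 1 of them was called higher and none lower. In 4T1 relative to 4T07 tumors none was called higher and 1 lower. Over 5 fibroblast markers the sums were 884 to 1109, 4733 to 7037 and 5658 to 8810.4, and over 4 epithelial markers 12.4 to 17.3, 101 to 157 and 783 to 914, so the epithelial markers of the 67NR tumors lay within the range of control scaffolds, 6.18 to 51.5.

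Lungs were compared with those of tumor-free mice to ask how this distant site of metastasis differed in mice with each line. In 4T07 lungs 10 of 41 genes were higher and 2 lower than in control lungs, beside 15.3% and 13.7% of all 21937 genes tested, so the 12 calls in either direction are near the background. In 4T1 lungs 4 were higher and none lower, beside 3.56% and 1.05%. In 67NR lungs none was called by edgeR or by DESeq2, beside 4.25% of all genes called, though leaving out the third control lung or the third 67NR lung gave 1. At an unadjusted p under 0.05 there were 5 of the 41 in 67NR lungs, and the share of all genes at that threshold is not given. The same 4 genes, Rsad2, Oas2, Oas3 and Oasl1, were called in 4T1 lungs relative to control and relative to 67NR lungs, beside 3.23% higher and 1.8% lower over all genes in the latter, and both comparisons share the 4T1 lungs. 4T07 relative to 67NR lungs gave 9 higher and 2 lower, beside 14.4% and 15.3%, and 4T1 relative to 4T07 lungs 2 higher and 7 lower, beside 11.6% and 11.9%.

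Rsad2 and 3 OAS genes, Oas2, Oas3 and Oasl1, were called higher in both 4T07 and 4T1 relative to control lungs, while Oas1a and Oasl2 were not called. Rsad2 read 103, 102 and 75.1 CPM among control lungs, 168, 118 and 93.0 CPM among 67NR lungs, 1403, 1378 and 858 CPM among 4T07 lungs and 306, 261 and 223 CPM among 4T1 lungs. The 4T07 and the 4T1 lungs each stood clear of every other group, with 3.76 ± 0.23 (SE, edgeR adjusted p = 1.03e-10) in 4T07, 1.51 ± 0.22 (SE, edgeR adjusted p = 0.000102) in 4T1 and -2.25 ± 0.22 (SE, edgeR adjusted p = 8.19e-08) in 4T1 relative to 4T07. Oas3 read 1.92, 1.62 and 1.29 in control lungs, 2.87, 3.25 and 2.46 in 67NR lungs, 28.4, 41.7 and 18.7 in 4T07 lungs and 22.2, 27.8 and 14.1 in 4T1 lungs (CPM). The 4T07 and 4T1 lungs overlapped with each other and lay above the rest, at 4.25 ± 0.35 (SE, edgeR adjusted p = 4.47e-09) and 3.73 ± 0.35 (SE, edgeR adjusted p = 3.09e-07) relative to control. Oasl1 read 0.349, 1.26 and 0.971 in control lungs, 1.53, 1.14 and 1.74 in 67NR lungs, 5.5, 6.19 and 3.47 in 4T07 lungs and 4.67, 3.39 and 2.25 in 4T1 lungs (CPM). Oas2 read 0.523, 1.62 and 0.971 in control lungs, 2.49, 1.46 and 1.88 in 67NR lungs, 7.83, 8.67 and 6.29 in 4T07 lungs and 6.92, 8.76 and 3.3 in 4T1 lungs (CPM). Both rose in 4T07 and 4T1 lungs from 2 to 9 counts per control library, with no overlap with control lungs.

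Isg15, Irf7, Igtp, Zbp1, Mx1 and Socs1 were also higher in 4T07 than in control lungs, and each was lower in 4T1 than in 4T07 lungs. Isg15 read 64.0, 50.1 and 34.5 in control lungs, 25.3, 26.2 and 32.7 in 67NR lungs, 153, 128 and 91.5 in 4T07 lungs and 49.7, 38.4 and 44.2 in 4T1 lungs (CPM). Irf7 read 9.59, 8.11 and 6.96 CPM among control lungs, 5.75, 10.6 and 10.7 CPM among 67NR lungs, 27.7, 28.3 and 19.7 CPM among 4T07 lungs and 14.2, 10.6 and 7.05 CPM among 4T1 lungs. The 4T07 lungs did not overlap with any other group for either gene, with 1.38 ± 0.21 (SE, edgeR adjusted p = 1.61e-05) for Isg15 and 1.68 ± 0.26 (SE, edgeR adjusted p = 2.4e-05) for Irf7 relative to control. The tests of 4T1 relative to 4T07 lungs gave -1.54 ± 0.21 (SE, edgeR adjusted p = 5.93e-06) and -1.30 ± 0.25 (SE, edgeR adjusted p = 0.000321). Igtp read 65.9, 68.7 and 64.4 in control lungs, 48.5, 65.9 and 58.7 in 67NR lungs, 206, 222 and 142 in 4T07 lungs and 86.3, 70.9 and 71.2 in 4T1 lungs (CPM), with 4T07 again above all. Zbp1, Mx1 and Socs1 were higher in 4T07 than in control lungs by 1.57, 1.24 and 1.31 log2 units.

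Ifit3 and Ifit3b fell in 4T07 lungs while these genes rose. Ifit3 read 31.2, 25.1 and 25.7 CPM among control lungs, 20.5, 27.0 and 21.6 CPM among 67NR lungs, 9.1, 7.64 and 8.89 CPM among 4T07 lungs and 29.8, 22.6 and 27.9 CPM among 4T1 lungs. Ifit3b read 25.8, 22.0 and 28.2 in control lungs, 15.5, 19.2 and 20.4 in 67NR lungs, 8.04, 5.57 and 4.77 in 4T07 lungs and 20.9, 24.1 and 27.3 in 4T1 lungs (CPM). For both, the 4T07 lungs lay below every other lung, at -1.62 ± 0.20 (SE, edgeR adjusted p = 1.09e-06) and -1.98 ± 0.21 (SE, edgeR adjusted p = 2.18e-07) relative to control. The GBPs and Iigp1, which had separated the tumors, were not called in any lung comparison. Iigp1 read 126 to 155 CPM in control and 101 to 146 CPM in 4T07 lungs.

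Cell type markers moved strongly in the same lungs. Summed CPM over 7 neutrophil markers were 228 to 289.9 in control, 234 to 269.8 in 67NR, 23476 to 28162 in 4T07 and 11505 to 27265 in 4T1 lungs. The lung epithelial sums were 26059 to 31725 in 67NR and 23568 to 29606 in 4T1 lungs, and the erythroid sums 8676 to 11822 in 67NR and 10124 to 15223 in 4T1 lungs, beside the values given above for control and 4T07 lungs. Over 4 B cell markers the sums were 72.0 to 95.9 in control, 73.3 to 90.9 in 67NR, 271 to 349.8 in 4T07 and 48.2 to 59.5 in 4T1 lungs. Over 4 endothelial markers they were 2287 to 2392 in control, 2432 to 2623 in 67NR, 654 to 1039 in 4T07 and 2139.8 to 2319.8 in 4T1 lungs. Neutrophil sums were thus high in both 4T07 and 4T1 lungs, while in 4T07 lungs the endothelial and lung epithelial sums lay below, and the erythroid and B cell sums above, the ranges of the other lungs. Their part in the results above was not tested. Of 85 other pathway genes tested, 24 were higher and 4 lower in 4T07, 2 higher and none lower in 4T1, and 1 higher and none lower in 67NR lungs relative to control. The shares of all genes were 15.3% and 13.7% in 4T07, 3.56% and 1.05% in 4T1, and 4.25% in either direction in 67NR lungs. In 4T07 lungs Cxcl9 was 3.56, Slfn1, a regulator of T cell quiescence, 3.03 and Pml, the scaffold protein of nuclear bodies, 2.21 log2 units above control.

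**Figure D4:**
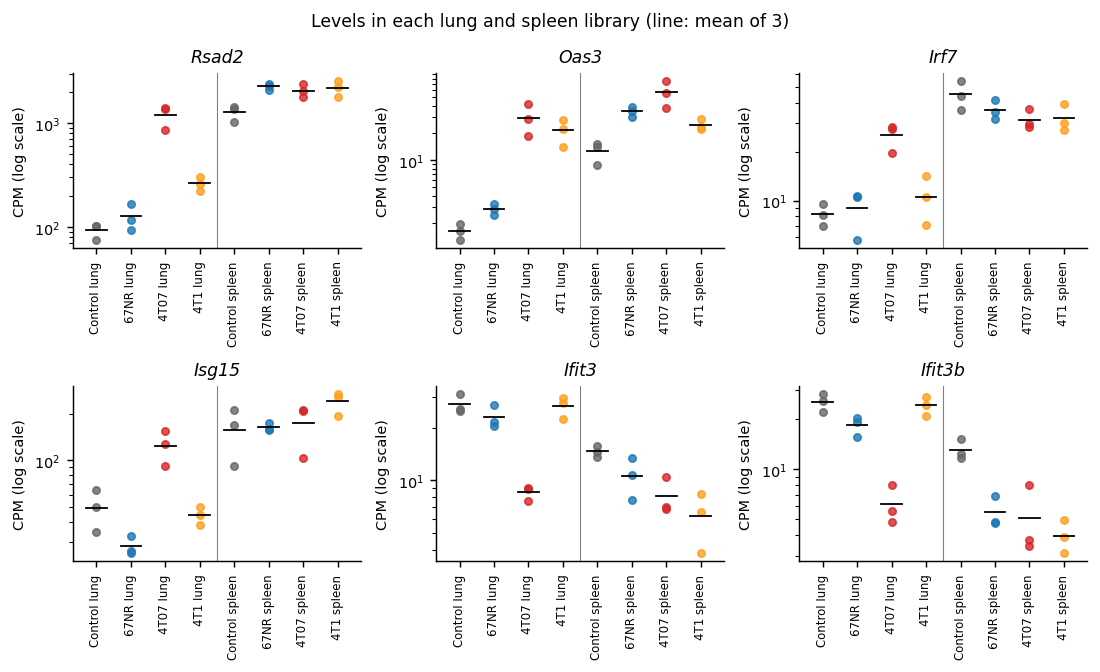
Level of Rsad2, Oas3, Irf7, Isg15, Ifit3 and Ifit3b in each lung and spleen library (points, CPM on log axes of different range) with group means as lines and color by tumor line. Rsad2, Oas3, Irf7 and Isg15 are raised and Ifit3 and Ifit3b lowered in the 4T07 lungs, which for Rsad2, at 858 to 1403 CPM, come near the control spleens.

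In spleens genes were called in both directions, as they were over all genes. Relative to control, 4T07 spleens had 2 of 41 genes higher and 6 lower, beside 8.26% and 10.3% of the 21128 genes tested, and 4T1 spleens had 5 higher and 7 lower, beside 9.84% and 10.0%. The 8 calls in 4T07 spleens are near the 18.6% of all genes called there in either direction. In 67NR spleens 1 was higher (Oas3) and 2 lower (Ifit3b and Ifi27l2a), beside 1.29% and 0.97%. That count of 3 became 1 without the second control spleen or the first 67NR spleen, 5 without the second 67NR spleen and 6 without the third control spleen. The count of 8 in 4T07 spleens became 5 without the second control spleen.

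Oas3 rose in the spleens of mice with each line. It read 8.74, 15.0 and 13.8 CPM among control spleens, 30.2, 35.3 and 39.2 CPM among 67NR spleens, 38.1, 55.4 and 75.6 CPM among 4T07 spleens and 23.0, 28.9 and 21.9 CPM among 4T1 spleens. No tumor-bearing spleen overlapped with the controls, and the log2 fold changes were 1.39 ± 0.26 (SE, edgeR adjusted p = 0.0132), 2.35 ± 0.26 (SE, edgeR adjusted p = 9.21e-06) and 1.23 ± 0.26 (SE, edgeR adjusted p = 0.00219). Rsad2 read 1026, 1429 and 1375 in control spleens, 2416, 2312 and 2102 in 67NR spleens, 1774, 2375 and 2039.9 in 4T07 spleens and 1807, 2555 and 2224 in 4T1 spleens (CPM). All 9 tumor-bearing spleens lay above the 3 controls, but only 4T1 among the lines was called, at 1.04 ± 0.20 (SE, edgeR adjusted p = 0.00111), with 0.74 ± 0.20 (SE, edgeR adjusted p = 0.0567) for 67NR and 0.87 ± 0.20 (SE, edgeR adjusted p = 0.00452) for 4T07, each under the fold threshold. Oasl1 read 3.88, 3.23 and 3.02 CPM among control spleens, 5.86, 3.83 and 4.71 CPM among 67NR spleens, 6.59, 4.66 and 7.73 CPM among 4T07 spleens and 7.19, 5.14 and 8.0 CPM among 4T1 spleens, and was called in 4T07 and 4T1.

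The genes that fell in spleens came from several roles. Ifit3b read 15.1, 12.2 and 11.6 in control spleens, 4.82, 6.9 and 4.71 in 67NR spleens, 8.03, 3.45 and 3.72 in 4T07 spleens and 3.12, 4.9 and 3.88 in 4T1 spleens (CPM), and was called lower in all 3 lines without overlap with the controls. Gbp5, which promotes inflammasome assembly, read 32.0, 37.1 and 31.9 CPM among control spleens, 17.0, 20.9 and 16.6 CPM among 67NR spleens, 10.9, 6.56 and 8.88 CPM among 4T07 spleens and 12.9, 23.8 and 11.0 CPM among 4T1 spleens, with -1.78 ± 0.25 (SE, edgeR adjusted p = 9.36e-05) in 4T07. All tumor-bearing spleens were below the controls for Gbp5 as well. Ifi44 read 59.2, 55.8 and 56.5 in control spleens, 78.7, 69.2 and 75.6 in 67NR spleens, 34.8, 23.1 and 34.1 in 4T07 spleens and 14.6, 25.7 and 16.0 in 4T1 spleens (CPM). Each 67NR spleen read above every control and each 4T07 and 4T1 spleen below, with -1.36 ± 0.21 (SE, edgeR adjusted p = 0.000136) called in 4T1, and -0.74 ± 0.20 (SE, edgeR adjusted p = 0.0128) in 4T07 and 0.29 ± 0.20 (SE, edgeR adjusted p = 0.497) in 67NR not called. Parp14 read 131, 153 and 146 CPM among control spleens, 88.2, 125 and 118 CPM among 67NR spleens, 53.1, 61.4 and 53.0 CPM among 4T07 spleens and 40.3, 71.7 and 44.6 CPM among 4T1 spleens, and Bst2 185, 367 and 226 CPM in control and 117, 114 and 70.2 CPM in 4T07 spleens. Both were lower in 4T07 spleens, at -1.19 and -1.20. Ddx58, Parp9, Iigp1 and Mx2 were lower in 4T1 spleens and Zbp1 and Ifi27l2a in 4T07 spleens, at -1.17 to -1.09 log2 units. Ifi27l2a read 249.7, 259 and 191 in control spleens, 114, 129 and 125 in 67NR spleens, 111, 82.8 and 84.2 in 4T07 spleens and 95.4, 99.9 and 120.2 in 4T1 spleens (CPM), with every tumor-bearing spleen below the controls.

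Comparisons between spleens of the 3 lines called few of the genes. 4T07 relative to 67NR gave 3 higher (Ifit1, Oas1a and Socs1) and 1 lower (Ifi44), beside 6.5% and 8.2% of all genes, and the count of 4 became 2 without the second 67NR or the second 4T07 spleen. Socs1 read 5.86, 3.07 and 2.24 CPM in 67NR and 17.7, 4.31 and 4.01 CPM in 4T07 spleens. The groups overlapped, and without the first 4T07 spleen the Socs1 log2 fold change of 1.45 became 0.45 and was not called. Oas1a overlapped as well, with 3, 3 and 8 counts in 67NR and 21, 21 and 2 counts in 4T07 spleens. 4T1 relative to 67NR gave 2 higher and 3 lower (Ifi44, Parp9 and Gbp3), beside 10.3% and 10.4%. Ifit1 read 9.0, 7.41 and 6.28 CPM in 67NR and 19.1, 15.5 and 12.0 CPM in 4T07 spleens. Parp9 read 77.9, 82.8 and 80.7 CPM in 67NR and 28.8, 30.1 and 24.7 CPM in 4T1 spleens, and Gbp3 26.4, 31.4 and 31.2 CPM in 67NR and 9.11, 10.8 and 11.2 CPM in 4T1 spleens. The groups did not overlap for Ifit1, Parp9 or Gbp3. Between 4T1 and 4T07 spleens Oas3 alone among the 41 was called, at -1.12 ± 0.25 (SE, edgeR adjusted p = 0.0265), beside 0.838% higher and 1.5% lower over all genes. Without the third 4T07 or the first 4T1 spleen none was called, and without the first 4T07 spleen 2 were. Neutrophil marker sums were 956 to 1699 in control, 976 to 1219.8 in 67NR, 24801 to 30437 in 4T07 and 12412 to 32609 in 4T1 spleens, B cell sums 641 to 804, 691 to 749.8, 265 to 354 and 146 to 249, and erythroid sums 40643 to 42671, 45337 to 51903, 56145 to 77039.7 and 57838 to 64792. In the same order, T cell sums were 242 to 334, 235 to 266, 106 to 135 and 105 to 134, and sums over 5 plasmacytoid dendritic cell markers 484 to 546, 491 to 526, 241 to 255 and 216 to 269, so both sums were lower in 4T07 and 4T1 than in control spleens. Their part in the spleen results was not tested. Of 85 other pathway genes tested, 2 were higher and 14 lower in 4T07 and 4 higher and 17 lower in 4T1 spleens relative to control. In 67NR spleens 1 was higher and 2 lower. In the same order, the shares of all genes were 8.26% and 10.3%, 9.84% and 10.0%, and 1.29% and 0.97%. The called genes included Ciita, the activator of class II genes, at -1.35 in 4T07, Gbp9 at -1.90 in 4T1 and Myd88 at 1.65 in 4T1.

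Scaffolds had the fewest calls. In 4T07 scaffolds 6 of 41 genes were lower than in control scaffolds and none higher, beside 3.59% lower and 3.85% higher of the 22156 genes tested, and DESeq2 also gave 6 lower and none higher. Ifit3b read 10.1, 8.39 and 13.4 CPM in control and 2.81, 3.14 and 4.35 CPM in 4T07 scaffolds, at -1.77 ± 0.27 (SE, edgeR adjusted p = 0.00105). Ifit1 read 15.1, 18.5 and 19.5 CPM in control and 5.99, 7.47 and 10.6 CPM in 4T07 scaffolds, and Xaf1, a promoter of cell death, 5.87, 8.55 and 8.82 CPM in control and 3.3, 3.73 and 4.5 CPM in 4T07 scaffolds. None of the 3 overlapped between the groups. Isg15, Bst2 and Ifi27l2a were lower, at log2 fold changes of -1.01, -1.05 and -1.09. The count of 6 became 3 without the first control scaffold. Ifi27l2a was also lower in 4T07 than in 67NR scaffolds, at 244, 254 and 254 CPM in 67NR and 121, 96.7 and 138 CPM in 4T07 scaffolds, with no overlap, the only one of the 41 called in that comparison, beside 2.82% higher and 3.03% lower. That count of 1 became 2 without the first 67NR scaffold and 3 without the first or the third 4T07 scaffold. Erythroid sums were 667 to 917 in control and 1351 to 11244 in 4T07 scaffolds and neutrophil sums 255 to 1703 and 1911 to 8577, and their part was not tested.

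The other 4 scaffold comparisons called none of the 41 genes with edgeR or DESeq2. By the same calling thresholds, 0.0%, 0.0226%, 0.0226% and 1.0% of all genes were called in 67NR and 4T1 relative to control, 4T1 relative to 67NR and 4T1 relative to 4T07. At an unadjusted p under 0.05 there were 6, 14, 3 and 9 of the 41 genes in the same order. The shares of all genes at that looser threshold are not given, so these counts have no background beside them. The second 4T1 scaffold differed from the other two of its group, with Mx1 at 9.63, 32.1 and 5.93 CPM, Gbp5 at 4.57, 26.1 and 4.49 CPM and Rtp4 at 49.1, 119 and 44.2 CPM in the 3 libraries. Without it 1 gene was called in 4T1 relative to control and 2 in 4T1 relative to 4T07 scaffolds, and without the first 4T07 scaffold 1 in the latter. Of 86 other pathway genes, 3 were higher and 5 lower in 4T07 relative to control scaffolds, with Tap1, a peptide transporter, at 1.52, Slfn2 at -1.35 and Ticam1, an adaptor of Toll-like receptor 3, at 1.16. Over all genes 3.85% were higher and 3.59% lower in 4T07 relative to control scaffolds. None of the 86 was called in 67NR or 4T1 relative to control, beside 0.0% and 0.0226% of all genes.

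**Figure D5:**
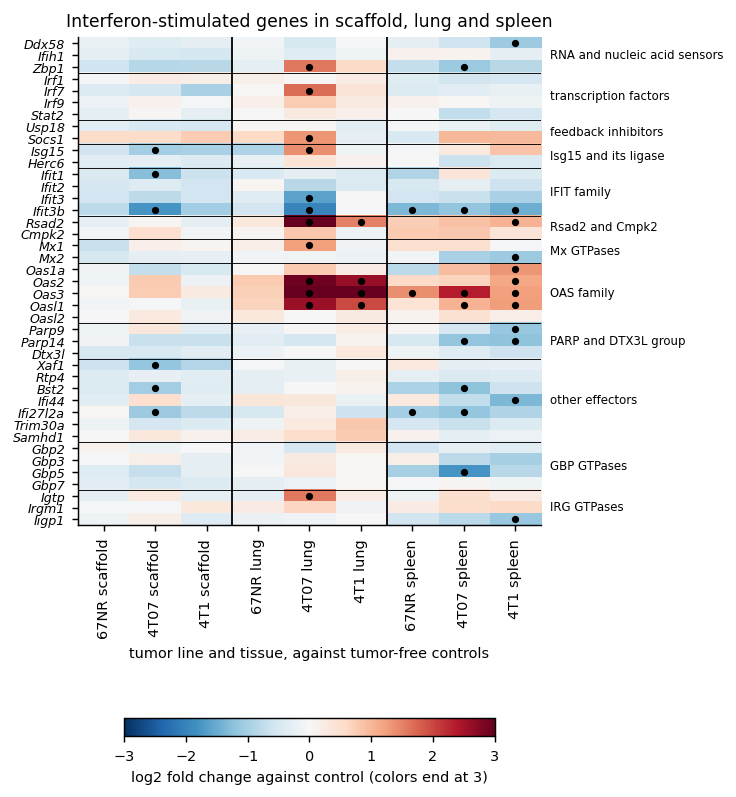
Log2 fold change of each gene in scaffold, lung and spleen of mice with 67NR, 4T07 or 4T1 tumors relative to the same tissue of control mice, with genes in rows by role and a black dot on each called gene (adjusted p under 0.10 and fold change over 2). Oas2, Oas3, Oasl1 and Rsad2 rise in 4T07 and 4T1 lungs, where Oas3 reaches 4.25, while Ifit3b falls in 4T07 lungs, 4T07 scaffolds and all 3 groups of spleens.

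Tumor-free tissues gave the starting levels. Control lungs had 1 of 41 genes higher and 15 lower than control spleens, beside 16.4% and 17.0% of the 27656 genes tested in the fit of all libraries. Control scaffolds had 13 higher and 1 lower than control lungs, beside 12.6% and 14.2%, and 4 higher and 3 lower than control spleens, beside 14.1% and 14.2%. Rsad2 differed most between control lung and spleen, at -3.81 ± 0.29 (SE, edgeR adjusted p = 4.92e-15) from the values already given, and was -1.97 ± 0.27 (SE, edgeR adjusted p = 4.5e-08) in scaffold relative to spleen. Oas3 and Irf7 were -2.98 and -2.49 in lung relative to spleen, where Irf7 read 44.3, 54.5 and 36.2 CPM in control spleens and 38.4, 40.9 and 26.6 CPM in control scaffolds. Oasl2 was the one gene higher in lung than spleen, with 18.8, 20.9 and 20.6 CPM in control lungs, 9.71, 10.8 and 7.33 CPM in control spleens and 20.6, 25.8 and 30.2 CPM in control scaffolds. Oasl1 and Oas1a were highest in scaffolds, where they read 6.92, 11.6 and 8.5 CPM and 5.03, 10.9 and 10.4 CPM, and Oas1a read 1.22, 2.7 and 0.971 CPM in control lungs and 2.72, 1.62 and 0.862 CPM in control spleens. Oas3 read 4.82, 14.9 and 9.6 CPM in control scaffolds, 2.85 ± 0.37 (SE, edgeR adjusted p = 2.43e-08) over lungs. Igtp read 51.8, 43.5 and 54.1 CPM in scaffolds and 148, 189 and 148 CPM in spleens, and Gbp5 15.7, 13.5 and 9.29 CPM in scaffolds, both lower than in spleens.

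Whether a line difference depended on the tissue was tested as a difference of log2 ratios in the fit of all 45 libraries, called at an adjusted p under 0.10 with no fold minimum. Tissues were taken as separate samples in that fit, so its p-values do not account for tissues that may come from the same mouse. The log2 ratio of 4T1 to 4T07 was more negative in tumors than in scaffolds for 23 of 41 genes and less so for none, beside 2.51% and 3.17% of all genes. It was more negative in tumors than in lungs for 28 and less so for 1 (Ifi27l2a), beside 11.9% and 11.2%, and than in spleens for 21 and none, beside 2.93% and 4.62%. DESeq2 also gave none of opposite sign in tumors relative to scaffolds and to spleens. Without the second 4T1 scaffold the count of 23 became 15. For Gbp3 the difference was -1.78 ± 0.28 (SE, edgeR adjusted p = 2.59e-05) from scaffolds, -2.12 ± 0.27 (SE, edgeR adjusted p = 1.16e-07) from lungs and -1.99 ± 0.30 (SE, edgeR adjusted p = 8.87e-06) from spleens. For Iigp1 it was -2.10 ± 0.40 (SE, edgeR adjusted p = 0.000529), -2.80 ± 0.40 (SE, edgeR adjusted p = 8.63e-07) and -2.29 ± 0.40 (SE, edgeR adjusted p = 0.000152). All 7 GBP and IRG genes were among those called against scaffolds, 6 of 7 against lungs (not Irgm1) and 6 of 7 against spleens (not Gbp2).

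Among the other tissues, the ratio of 4T1 to 4T07 was higher in scaffold than lung for 5 genes and lower for 6, beside 7.67% and 9.19% of all genes, and higher in lung than spleen for 8 and lower for 7, beside 11.4% and 11.0%. Between scaffold and spleen 1 gene (Ifit1) was called, at 1.49 ± 0.39 (SE, edgeR adjusted p = 0.0521), beside 0.835% higher and 0.383% lower. The count of 11 between scaffold and lung became 7 without the third 4T07 scaffold, the second 4T07 lung or the first 4T1 lung and 6 without the second 4T1 lung. The 1 call between scaffold and spleen was lost without the first 4T07 scaffold, the first or second 4T07 spleen or the first or second 4T1 spleen.

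Relative to control, the 67NR response was not called as different between tissues for any of the 41 genes with edgeR, beside 0.00723% for scaffold and lung, 0.0% for scaffold and spleen and 0.047% for lung and spleen over all genes. At an unadjusted p under 0.05 there were 0, 6 and 2 genes, a threshold for which the shares of all genes are not given, and DESeq2 called 0, 1 and 0. Without the third control spleen 1 gene was called between scaffold and spleen. The 4T07 response was higher in lung than spleen for 18 genes and lower for 2, beside 10.6% and 9.94%, with Rsad2 at 2.77 ± 0.37 (SE, edgeR adjusted p = 3.23e-07) and Zbp1 at 2.58 ± 0.41 (SE, edgeR adjusted p = 9.46e-06). It was lower in scaffold than lung for 10 genes and higher for none, beside 8.29% and 10.4%, and higher in scaffold than spleen for 6 and lower for 3, beside 7.94% and 7.13%. The count of 20 between lung and spleen became 13 without the second control spleen.

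The 4T1 response was higher in lung than spleen for 12 genes and lower for 1, beside 7.95% and 7.55%, with Oas3 at 2.49 ± 0.47 (SE, edgeR adjusted p = 0.000375). It was lower in scaffold than lung for 5 genes and higher for none, beside 0.861% and 0.0904%. Those 5 were Rsad2, Oas2, Oas3, Oasl1 and Trim30a. Relative to spleen it was higher in scaffold for 3 and lower for 4, beside 7.37% and 6.8%. Without the second 4T1 scaffold the count of 5 became 8, and the count of 7 became 4 without the second control scaffold or the first 4T1 spleen and 3 without the third 4T1 spleen. These tests share control and tumor-bearing libraries with each other.

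There were 14 pairs of a gene and a contrast, over 12 genes, called in opposite directions in different tissues under the same contrast. Isg15 in 4T07 relative to control was -1.01 ± 0.25 (SE) in scaffolds, from 96.3, 104 and 80.4 CPM to 65.4, 38.9 and 49.5 CPM, and 1.38 ± 0.21 in lungs. The difference between those tissues was -2.28 ± 0.40 (SE, edgeR adjusted p = 5.2e-05). Zbp1 in 4T07 relative to control was 1.57 ± 0.28 in lungs, where the levels were 7.84, 9.2 and 4.86 CPM in control and 23.5, 23.5 and 15.2 CPM in 4T07 lungs, and -1.12 ± 0.27 in spleens, from 31.3, 48.5 and 31.0 CPM to 14.2, 19.3 and 10.9 CPM. Ifit3 in 4T1 relative to 4T07 was -1.52 ± 0.26 in tumors and 1.60 ± 0.20 in lungs, with a difference of -3.14 ± 0.43 (SE, edgeR adjusted p = 3.66e-07). The other pairs compare 4T07 or 4T1 with 67NR, a contrast whose difference between tissues was not tested. In 4T07 relative to 67NR, Irf7 and Oasl1 were lower in tumors and higher in lungs, at 1.64 and 1.94 in lungs. In 4T1 relative to 67NR, Rsad2, Oas2, Oas3 and Oasl1 were likewise lower in tumors and higher in lungs, with 1.19, 1.83, 3.02 and 1.32 in lungs. Between tumor and spleen the signs differed for Oas1a and Ifi44 in 4T07 relative to 67NR and for Oas1a, Parp9 and Socs1 in 4T1 relative to 67NR. Oas1a read 0.628, 0.766 and 1.79 in 67NR spleens, 4.32, 3.62 and 0.573 in 4T07 spleens and 3.36, 2.45 and 5.26 in 4T1 spleens (CPM). The 67NR and 4T07 spleens overlapped, and the 67NR spleens held 3, 3 and 8 Oas1a counts, near the limit of detection. In tumors Oas1a read 8.87, 12.0 and 11.6 for 67NR, 8.23, 3.99 and 1.98 for 4T07 and 5.85, 5.53 and 6.26 for 4T1 (CPM). Socs1 read 5.86, 3.07 and 2.24 CPM in 67NR and 9.11, 9.79 and 5.26 CPM in 4T1 spleens, which overlapped.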

How the data were processed

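The authors deposited raw counts per gene from Lexogen QuantSeq 3′ mRNA FWD libraries with unique molecular identifiers. The submitters' processing notes name Trim Galore 0.5.0, STAR 2.6.0 and featureCounts. The genome build, annotation and collapsing of identifiers are not given in the sources used here. The 120 lines that repeat a symbol were summed, leaving 55367 symbols of 55487 lines. Genes with more than 10 counts over the fitted libraries were tested per tissue with edgeR 4.0.16 (R 4.3.3, TMM, quasi-likelihood F test, Benjamini-Hochberg adjustment over all genes tested). Calls used an adjusted p under 0.05 in tumors or 0.10 elsewhere with a fold change over 2. The study used DESeq2 with the same thresholds for tumors and scaffolds, and for lungs and spleens it names a p without saying that it was adjusted. SEs are the log2 fold change divided by the square root of F. Differences between tissues and between control tissues came from 1 fit of 15 groups. Leaving out a library in that fit kept the dispersion trend of all 45. DESeq2 1.42.0 was an alternative. Scripts were tested on simulated data. The SEs and SDs include the spread between the libraries of a group, whereas the floor of 3 counts concerns counting error only. With 3 libraries against 3, an exact permutation test cannot go below p = 0.10, so none was used for single genes.

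The genes and lists were chosen with earlier results of these data known. Each of the 41 genes is named, and of the wider pathway list only counts and a few examples are given. Values in every library are given for 15 genes fixed by role in tumors, for up to 3 called genes per direction in each comparison with the largest fold change among those with a tissue mean of at least 5 CPM and no overlap, and for genes called in opposite directions in different tissues. No 2 libraries of a group were identical (0 of 45 pairs). The listed Tmem173 and Mb21d1 were found under the names Sting1 and Cgas, and Mnda under Ifi211, which was already listed.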

Additional observations from a re-analysis of the deposited data

Results flagged for a closer look

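The results below were singled out because the same contrast differed between tissues by a test of the difference itself (edgeR, adjusted p under 0.10 in the fit of all 45 libraries). The ratio of 4T1 to 4T07 differed for 23 of the 41 genes between tumor and scaffold (beside 5.69% of all 27656 genes tested), 29 between tumor and lung (beside 23.1%), 21 between tumor and spleen (beside 7.55%), 11 between scaffold and lung (beside 16.9%), 1 between scaffold and spleen (beside 1.22%) and 15 between lung and spleen (beside 22.4%). The 4T07 response relative to control differed for 10 genes between scaffold and lung, 9 between scaffold and spleen and 20 between lung and spleen, beside 18.7%, 15.1% and 20.6% of all genes. The 4T1 response relative to control differed for 5, 7 and 13 genes in the same order, beside 0.951%, 14.2% and 15.5%. The 7 genes between scaffold and spleen are near the share of all genes. Outlying libraries were not tested for, since each group holds 3.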

How the results depend on the processing

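No paired analysis was possible because the labels give the groups no shared replicate numbers and do not link tissues of one mouse. Of 39 comparisons, the number of called genes stayed within 1.5 times under DESeq2 size factors in every one, under DESeq2 in 37, without a count filter in 37, with at least 10 counts in every library in 35, with only the groups compared in 37 and, of 21, with all 45 libraries in one fit in 20. No single gene reversed under any alternative run, and 4547 of 4972 gene tests kept their call. These tests cover only genes already called in the main fit. Of the 4972, 3108 left out 1 library and share the others with that fit, so they are not independent of it. Genes removed by the filter of at least 10 counts in every library are not among them, with 295 tests under it beside 354 under DESeq2. Summed CPM on TMM-scaled library sizes moved by more than the SD in 7 of 15 groups.

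Calling by adjusted p alone gave 13 genes in 4T07 relative to control scaffolds, 5 in 4T07 relative to 67NR scaffolds, 2, 24, 23, 16 and 20 in lungs (67NR and 4T07 relative to control, 4T07 and 4T1 relative to 67NR, 4T1 relative to 4T07), 9, 24, 24, 12, 15 and 2 in spleens (67NR, 4T07 and 4T1 relative to control, 4T07 and 4T1 relative to 67NR, 4T1 relative to 4T07), and in controls 17 between scaffold and spleen and 29 between lung and spleen, since this setting drops the fold minimum. The shares of all genes called by adjusted p alone are not given. Whether the counts under that setting exceed the background therefore cannot be told. Without a count filter, 1 gene was called in 4T1 relative to control scaffolds, as with all 45 libraries in one fit. Dropping the count filter also gave 3 genes for the 67NR response between scaffold and spleen. At least 10 counts in every library, which removes genes low in any library, left 1 gene each in 4T1 relative to control and to 67NR lungs, 4 between control scaffold and spleen and 9 between control scaffold and lung. With only the groups compared, the ratio of 4T1 to 4T07 was called for 0 genes between scaffold and spleen and the 4T1 response for 20 between lung and spleen. DESeq2 gave 1 gene for the 67NR response between scaffold and spleen and 8 for the 4T1 response between scaffold and lung. The cause of these last shifts was not tested.

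Leaving out each library in turn gave 3 to 7 genes in 4T07 relative to control scaffolds, 0 to 1 in 4T1 relative to control scaffolds, 1 to 3 in 4T07 relative to 67NR scaffolds and 0 to 2 in 4T1 relative to 4T07 scaffolds. It gave 0 to 1 in 67NR relative to control lungs, 1 to 6 and 5 to 9 in 67NR and 4T07 relative to control spleens, 2 to 5 in 4T07 relative to 67NR spleens and 0 to 2 in 4T1 relative to 4T07 spleens. For the ratio of 4T1 to 4T07 the ranges were 15 to 26 between tumor and scaffold, 6 to 14 between scaffold and lung and 0 to 1 between scaffold and spleen. For responses relative to control they were 0 to 1 for 67NR between scaffold and spleen, 13 to 20 for 4T07 between lung and spleen, 4 to 8 for 4T1 between scaffold and lung and 3 to 10 for 4T1 between scaffold and spleen. Depth limits the genes near 3 counts a library, such as Oas2, Oasl1 and Oas1a in lungs and Oas1a in spleens.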
